A study of Mus musculus with 12 samples.

Results

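The genes described here are 50 genes of the G2 phase and of mitosis, taken from a fixed list of symbols for mitotic kinases and their regulators, kinetochore and spindle proteins, cytokinesis factors and chromosome structure proteins. The rule that picks them uses no expression value, but the list was drawn up with earlier results of these data known. All 50 were found among the 27179 Entrez gene IDs of the count table, and all 50 were among the 12910 genes that passed the filter on low counts. For short they are called mitotic genes.

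The cells were MC38-idAdpgkG, a single engineered line derived from MC38, a colon carcinoma line of C57BL/6 mice. The line carries a stably transfected construct for the R304M form of Adpgk (ADP-dependent glucokinase) joined to turboGFP, which the labels call inducible and degradable. Doxycycline is an inducer of such constructs, and dTAG-13 is a small-molecule degrader of tagged proteins. All 4 groups received 20 ng/mL mouse interferon-gamma (IFNg). The control group was given it for 51 h and nothing else, while the doxycycline group was kept in 1 µg/mL doxycycline over the same 51 h. dTAG-13 cells had IFNg for 48 h and then 1 µM dTAG-13 for a further 3 h, and the combined group had IFNg and doxycycline for 48 h and then dTAG-13 for 3 h. Poly(A) RNA was sequenced from 3 libraries per group, which the labels give as technical replicates of 1 biological sample. Errors and p-values therefore measure the spread between libraries of 1 culture, not between cultures.

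Entry into mitosis is driven by cyclin-dependent kinase 1 (Cdk1) bound to cyclins A and B, and is carried forward by the Polo-like and Aurora kinases. Kinetochores then attach chromosomes to the spindle under the watch of the spindle checkpoint, and the anaphase-promoting complex (APC/C) with its activator Cdc20 ends mitosis by marking securin and cyclin B for destruction. Transcripts of most of these proteins peak in G2 and mitosis under the control of the MuvB complex with B-Myb and Foxm1, often through a cell cycle homology region (CHR) and CCAAT boxes in the promoter, so that in a culture their level depends on how many cells are in those phases as well as on transcription and decay in each cell. In bulk RNA such as this, fewer cells in a phase and less RNA per cell cannot be told apart.

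Promoters of 41 of the 50 genes were in the RefSeq table for GRCm38.p6. In the 250 bases before the start, a CHR (TTTGAA or TTCGAA, on either strand) was present in 15 of the 41 (36.6%), against 14.8% of the tested genes with a promoter and 19.6% of all genes in the promoter table. A gene with several starts was counted once, as holding a motif if any start did. A CCAAT box (either strand) was present in 31 of the 41 (75.6%), against 41.9% and 37.5%, and both motifs in 14 (34.1%), against 6.17% and 7.0%. Matches were counted whether or not they overlapped each other. A match describes the letters only and is not evidence of a bound site. The 3 promoters printed here were picked, among genes with the largest changes, for holding both motifs outside annotated exons. Their motif content was therefore set by the choice. They belong to Mki67 with a large fall after dTAG-13, Cdc20 with a fall that was smaller in the presence of doxycycline, and Cdk1 with a rise. Plk1, Cenpe, Cenpf and Aspm, which also had large falls, held at least 1 CCAAT box but no CHR. Capitals mark the CHR and the CCAAT boxes, the latter written ATTGG where they lie on the opposite strand, and each stretch holds only bases outside annotated exons. Each reads 5′ to 3′ along the strand of its gene, the minus strand in all 3, at chr7:135716451-135716629 for Mki67, chr4:118437353-118437593 for Cdc20 and chr10:69352939-69353162 for Cdk1 (GRCm38.p6).
Mki67: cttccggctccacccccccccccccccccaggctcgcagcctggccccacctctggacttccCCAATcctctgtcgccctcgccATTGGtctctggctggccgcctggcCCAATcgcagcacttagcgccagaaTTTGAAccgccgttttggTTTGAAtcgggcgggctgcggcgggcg
Cdc20: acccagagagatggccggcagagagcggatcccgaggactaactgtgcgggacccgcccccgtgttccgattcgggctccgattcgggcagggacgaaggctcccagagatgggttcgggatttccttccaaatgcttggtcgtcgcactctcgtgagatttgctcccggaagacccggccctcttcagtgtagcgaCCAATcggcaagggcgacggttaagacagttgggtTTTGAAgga
Cdk1: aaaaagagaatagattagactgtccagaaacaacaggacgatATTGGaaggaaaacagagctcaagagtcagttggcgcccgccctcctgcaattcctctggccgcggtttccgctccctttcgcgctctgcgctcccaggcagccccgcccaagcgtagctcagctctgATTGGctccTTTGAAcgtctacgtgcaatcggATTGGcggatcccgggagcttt
Mki67 held a pair of CHR matches, which began 45 and 27 bases from the end of the printed stretch, and 3 CCAAT boxes. In the printed stretch of Cdc20 1 CHR began 9 bases from the end and 1 CCAAT box 44 bases from it. In Cdk1 1 CHR began 45 bases from the end, between CCAAT boxes at 54 and 22 bases. The whole 250-base windows used for the counts run on into exon bases that are not printed, and there Cdc20 held 2 CCAAT boxes and Cdk1 2 CHR matches in all.

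Libraries held 22165538 to 32809573 counted reads, and the 50 genes took 0.728% to 0.866% of them, with 372 to 36531 reads for a gene in a library. Adpgk, the labelled transgene, measured 160.5 ± 2.49 CPM (mean ± SD, n = 3 libraries; CPM is the read count per 1000000 reads of TMM-scaled library size) in control, 1337.7 ± 20.1 with doxycycline, 181.3 ± 4.18 with dTAG-13 and 1369.3 ± 15.7 with both, highest in the groups labelled with doxycycline. Reads of the native gene and the transgene are counted together. Epithelial markers were at or near 0: of 10 listed, Epcam and Cdx2 had no read in any library, 9 had fewer than 10 reads in every library, and their summed level was 0.220 to 0.809 CPM. Leukocyte markers summed to at most 0.200 CPM, with Cd3e, Cd8a and Ncr1 at 0, and the 5 endothelial markers to 1.96 to 4.18 CPM. The 7 fibroblast markers, of which 3 reached 10 CPM (Col3a1, Pdgfra and Dcn), summed to 1163.6 to 1186.5 CPM in control, 1416.9 to 1460.8 with doxycycline, 1096.1 to 1126.9 with dTAG-13 and 1177.6 to 1205.4 with both. Their part in the results was not tested.

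In control cells the mitotic genes were expressed well above the typical gene. Their median level was 136.1 CPM, against 30.7 for all tested genes, and per kilobase of exon 40.7 against 10.3 CPM per kb. Per kilobase, Top2a, the topoisomerase that untangles sister chromatids, was highest at 203.9 ± 2.90 CPM per kb (SD, n = 3). It was followed by the condensin ATPase Smc4 (106.4 ± 2.44), Cdc20 (105.4 ± 3.97) and the APC/C ubiquitin-conjugating enzyme Ube2c (99.9 ± 1.74). The libraries of Smc4 and Cdc20 overlapped, as did those of Cdc20 and Ube2c, so their order is not resolved. At the low end were the checkpoint protein Mad2l1 (12.5 CPM per kb), the spindle pole protein Aspm (9.59) and securin, Pttg1 (7.45).

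After 3 h of dTAG-13 without doxycycline, most mitotic genes fell. The summed level of the 50 genes was 8386.7, 8507.6 and 8545.2 CPM in the control libraries and 7067.2, 7193.3 and 7108.7 CPM in the dTAG-13 libraries, a difference of -16.0% with no overlap. By edgeR's quasi-likelihood test with Benjamini-Hochberg adjustment over all tested genes (adjusted p under 0.05), 42 of 50 were called, where 62.1% of all tested genes were. Of these 34 fell, where 32.1% of all tested genes were called lower, and 8 rose, where 30.0% were called higher. The 8 were Cdk1, Mad2l1, Cenpa, Bub1, Pttg1, Nuf2, Spc24 and Ndc80, and the first 3 were called higher under every alternative tried. The median log2 fold change of the 50 was -0.18, against 0.02 for all tested genes. For 33 genes every dTAG-13 library lay below every control library (33.3% of tested genes), and for 8 every one lay above (32.2%). Falls were mostly modest: 7 genes fell by at least 1.5-fold and 1, Mki67, by at least 2-fold. The falls covered all 5 mitotic kinases, 7 of 8 spindle motors and microtubule factors and 5 of 6 cytokinesis factors, while 4 of 7 centromere and kinetochore genes and 2 of 4 checkpoint genes rose. Of the 27 falling genes with a promoter in the table, 10 held a CHR (37.0%) and 23 a CCAAT box (85.2%), of the 7 rising ones 1 (14.3%) and 3 (42.9%), and of the 7 that were not called 4 (57.1%) and 5 (71.4%). With scaling by library size only, 27 mitotic genes were lower and 14 higher, the member median was -0.09 against 0.11 for all tested genes, and the calls among all tested genes were 5256 higher and 3115 lower in place of 3877 and 4144.

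The fall was also present where dTAG-13 was added to doxycycline-treated cells, which share no library with the first comparison. Summed levels were 8708.4, 8704.5 and 8594.6 CPM with doxycycline and 7731.9, 7788.6 and 7752.2 CPM with both compounds, a difference of -10.5% without overlap. Of the 50 genes, 37 were called, where 64.1% of all tested genes were, and 28 fell (33.4% of all tested genes were called lower) and 9 rose (30.7% called higher), with a median log2 fold change of -0.08, against 0.00 for all tested genes (0.003 before rounding). Groups did not overlap for 28 genes on the lower side (35.0% of tested genes) and for 12 on the higher side (32.1%). The 34 genes called in both dTAG-13 comparisons had the same sign in both: 28 were lower in both, a share of 82.4% of the 34 called lower with dTAG-13 alone and all of the 28 called lower with doxycycline present, and 6 were higher in both. Among all tested genes, 26.6% were lower in both and 21.4% higher in both. Scaling by library size only gave 24 lower and 13 higher, with calls among all tested genes of 4218 higher and 4076 lower in place of 3957 and 4316.

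**Figure D1:**
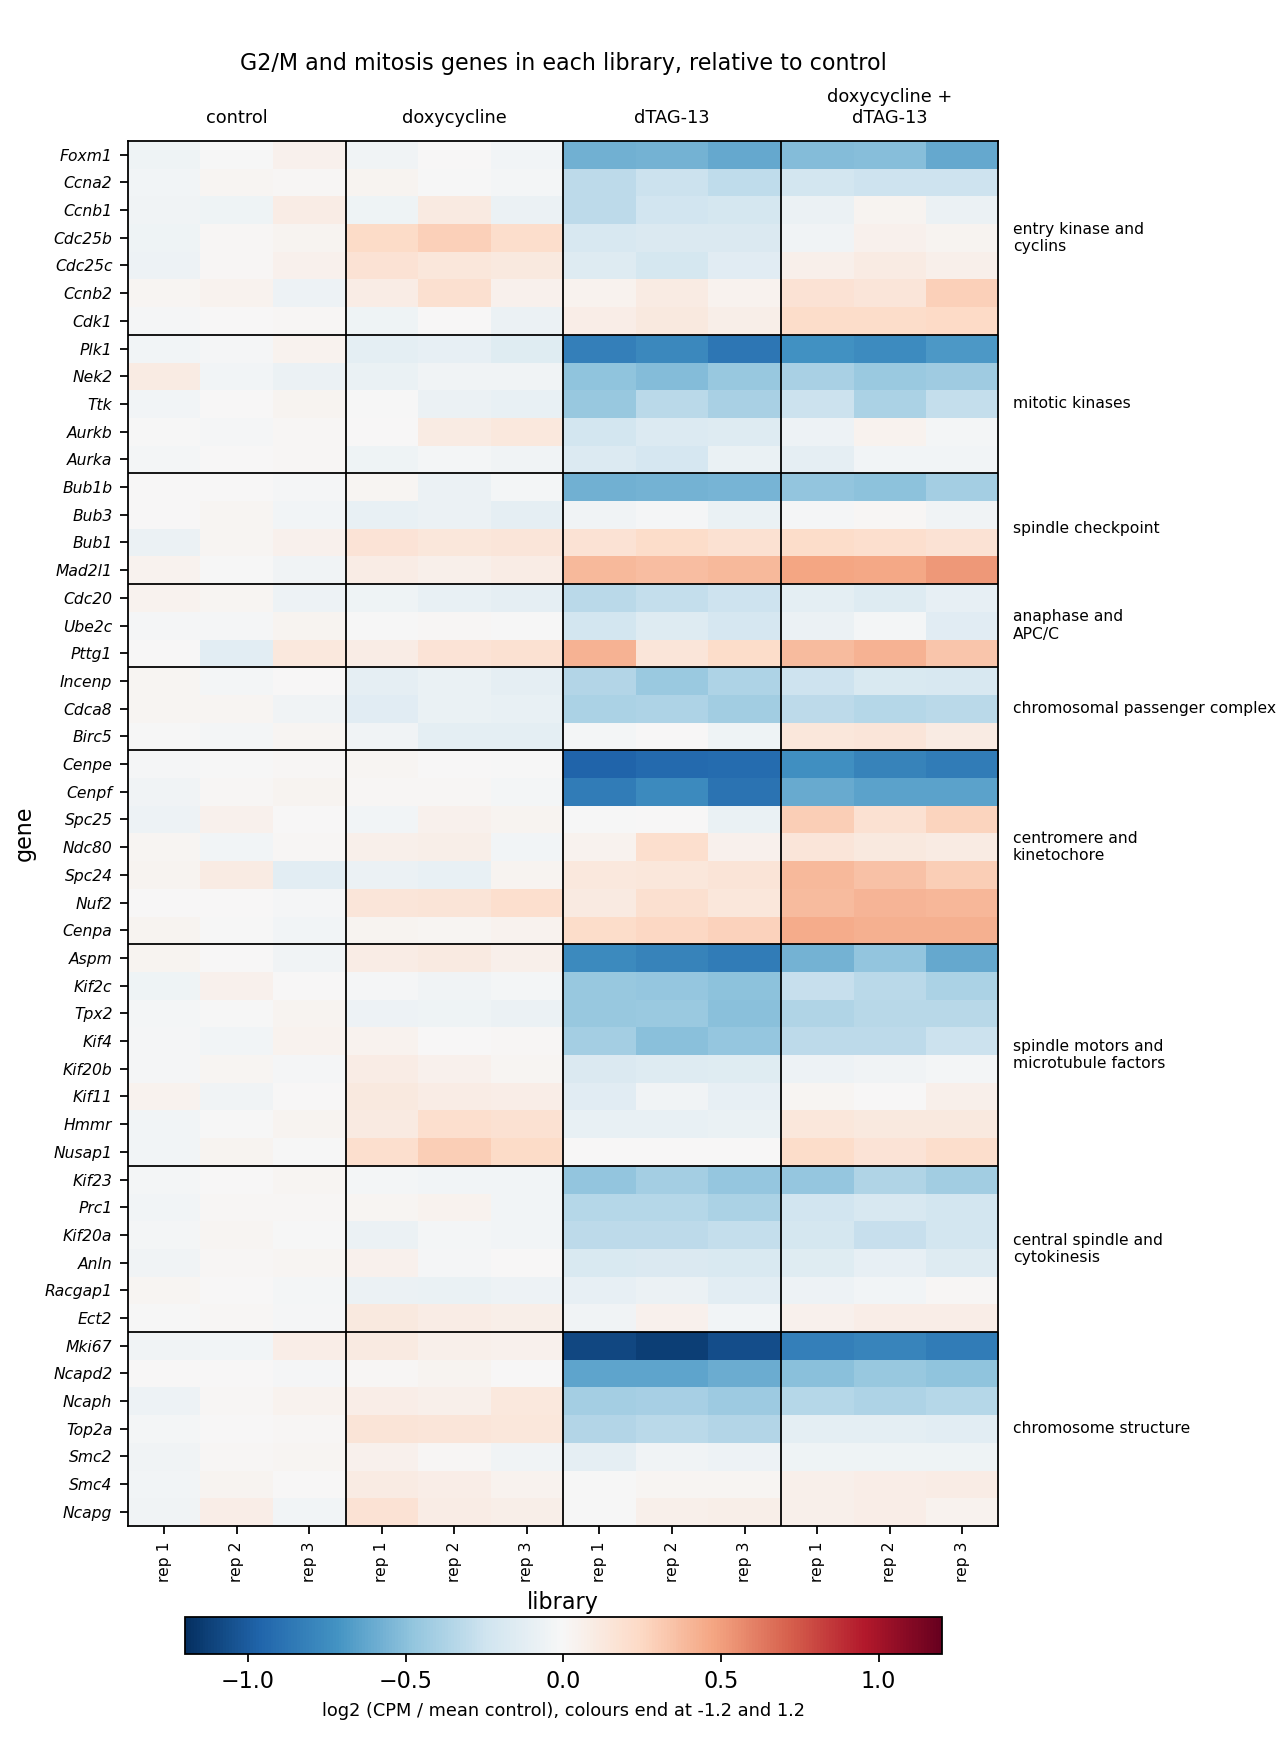
Level of each of the 50 mitotic genes (vertical axis, grouped by role) in each of the 12 libraries (horizontal axis, 3 per treatment group), as the log2 ratio of its CPM to the mean of the control libraries. The dTAG-13 columns are mostly blue, with 34 genes called lower and 8 higher, the columns with both compounds are paler, and the doxycycline columns lie near 0, with 15 genes called higher and 8 lower.

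Doxycycline for 51 h on its own moved the mitotic genes little. Summed levels were 8386.7 to 8545.2 CPM in control and 8594.6 to 8708.4 CPM with doxycycline, a difference of 2.2%. Of the 50 genes 23 were called, where 33.5% of all tested genes were. Of these 15 rose, where 14.8% of all tested genes were called higher, and 8 fell, where 18.7% were called lower. The median log2 fold change was 0.01, against -0.01 for all tested genes, and the values ran from -0.12 (Plk1) to 0.25 (Nusap1, 0.245 before rounding). Every doxycycline library lay above every control library for 16 genes (19.8% of tested genes) and below for 9 (24.1%). The count of falls rested on scaling and on single libraries. It was 1 with scaling by library size only, when 18 genes rose and calls among all tested genes were 2546 higher and 1607 lower in place of 1917 and 2414. It was 3 without control replicate 2, 4 without doxycycline replicate 1 or 2 and 5 without dTAG-13 replicate 2, and the count of rises was 9 without control replicate 1. With each library corrected for transcript length and GC content, more of the 50 genes were called lower than higher. The same held for all genes with a length. The summed fibroblast markers were also higher with doxycycline, by the ranges already given. Most of that sum was Col3a1 (mean 850.1 CPM in control and 1104.8 with doxycycline). Of the 4 fibroblast markers tested, 3 were called higher and 1, Dcn, lower (163.7 and 142.7 CPM). Col1a1, Col1a2 and Lum did not pass the filter on low counts. Control libraries serve in both single-compound comparisons, so these are not independent of each other.

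Among cells that received dTAG-13, those also given doxycycline had higher mitotic transcripts. Summed levels were 7067.2 to 7193.3 CPM with dTAG-13 alone and 7731.9 to 7788.6 CPM with both, a difference of 8.9% with no overlap. Calls were made for 33 of the 50, where 20.4% of all tested genes were called. All 33 rose, where 10.7% of all tested genes were called higher, and 0 fell, where 9.64% were called lower. All 50 estimates were above 0, from 0.01 to 0.28 with a median of 0.12, against 0.00 for all tested genes (-0.001 before rounding), so that at an unadjusted p under 0.05 the edgeR count of falls was also 0 and that of rises 37, and DESeq2 called 33 and 0. Groups were separate on the higher side for 39 genes (17.6% of tested genes) and on the lower side for 0 (16.7%). Ccnb2, Plk1, Aurka, Bub1b, Mad2l1, Kif2c and Racgap1 lost their call in at least 1 fit without 1 library, and the count of rises then ran from 27 to 36. With scaling by library size only, 26 rose and 0 fell, and calls among all tested genes were 926 higher and 2132 lower in place of 1386 and 1244.

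The interaction, the log2 effect of dTAG-13 with doxycycline minus that without, tests whether the 2 dTAG-13 effects differ. It was called for 26 of 50 genes, where 22.9% of all tested genes were. It was above 0 for 25 of 50 genes, where 13.2% of all tested genes were, and below 0 for 1 (Bub1), where 9.64% were. The median was 0.12, against 0.01 for all tested genes (0.005 before rounding), and 41 of 50 estimates were positive. Of the 34 genes that fell with dTAG-13 alone, 32 had a positive estimate and 19 were called, so for these the fall was smaller in the presence of doxycycline. The interaction subtracts the same dTAG-13 effect by which these 34 were picked, so positive estimates among them are partly built in. The count depends on scaling: by library size only it was 9 above and 4 below 0, with a median of 0.05 against -0.07 for all tested genes and all-gene calls of 818 above and 2424 below in place of 1705 and 1245. Without 1 library the count ran from 19 to 26, and with library size scaling only 16 of the 25 lost the call. In fits without 1 library 11 of the 25 lost it at least once: Ccnb1, Aurka, Bub1b, Bub3, Ube2c, Cenpe, Spc24, Kif2c, Aspm, Kif20a and Top2a. The 9 genes called above 0 under every alternative were Cdk1, Plk1, Cdc20, Birc5, Incenp, Cenpf, Spc25, Tpx2 and Mki67. Libraries with dTAG-13 alone serve in the comparison with control, in that with both compounds and in the interaction, so these are not independent.

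**Figure D2:**
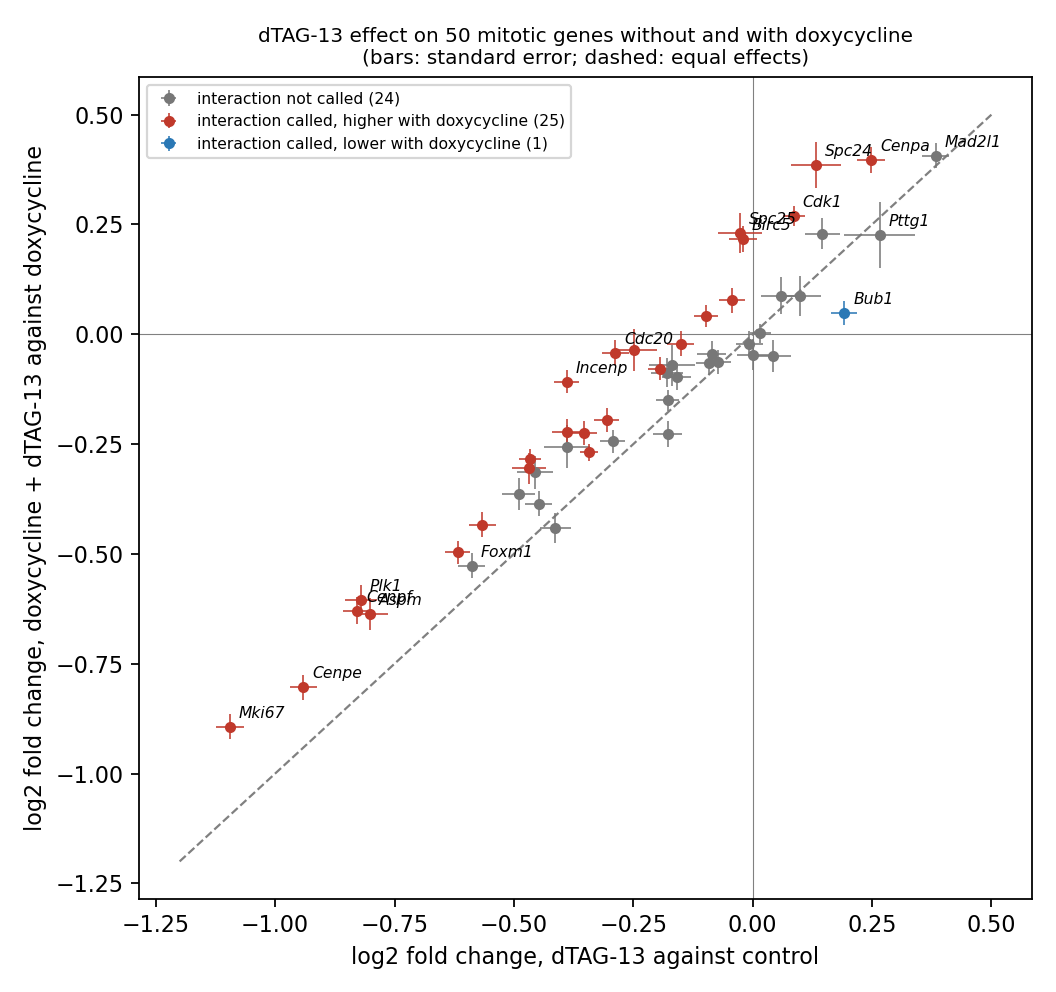
The log2 fold change of each of the 50 genes after dTAG-13 in doxycycline-treated cells (vertical axis) against that in cells without doxycycline (horizontal axis), with standard errors as bars and a dashed line of equal effects. The 25 genes whose interaction was called above 0 (red) lie above the line, and Bub1 (blue) below it.

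Among the genes that drive entry into mitosis, 5 of 7 fell after dTAG-13 alone and 1 rose, where 32.1% and 30.0% of all tested genes did. Foxm1 (Entrez 14235), the transcription factor of the G2/M programme, measured 216.9, 223.5 and 232.3 CPM in control, 218.1, 225.6 and 218.4 with doxycycline, 150.0, 150.8 and 146.3 with dTAG-13, and 155.8, 157.4 and 146.7 with both. The 6 libraries with dTAG-13 all lay below the 6 without it, and doxycycline made no separation in either pair. Its log2 fold change was -0.59 ± 0.03 (standard error, SE; edgeR adjusted p = 3.97e-21) after dTAG-13 alone and -0.53 ± 0.03 (adjusted p = 2.07e-19) in doxycycline-treated cells. The exons of Foxm1 overlap those of Tex52 and Gm44596, and since the strand setting of the counting is not known, its counts can hold reads of either.

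Cdk1 (Entrez 12534), the kinase of mitotic entry, went the other way. It measured 290.0, 293.3 and 294.6 CPM in control, 281.5, 292.9 and 278.9 with doxycycline, 308.9, 316.5 and 306.5 with dTAG-13, and 340.7, 341.4 and 345.7 with both. The dTAG-13 libraries were above those of control and the combined libraries above all others. The change was 0.09 ± 0.02 (adjusted p = 0.00151) after dTAG-13 alone and 0.27 ± 0.02 (adjusted p = 3.79e-13) in doxycycline-treated cells, and the interaction was 0.18 ± 0.03 (adjusted p = 6.38e-05).

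Of the 3 cyclins, cyclin A2 was called lower in both dTAG-13 comparisons with or without per-library correction of log2 CPM for transcript length and GC content. That correction changed the calls of cyclin B2 in both and of cyclin B1 in doxycycline-treated cells. Cyclin A2 (Ccna2) measured 196.5, 203.7 and 202.9 CPM in control, 206.3, 201.0 and 197.4 with doxycycline, 161.6, 167.9 and 162.5 with dTAG-13, and 172.2, 169.1 and 169.7 with both. Cyclin B1 (Ccnb1) measured 89.3, 88.5 and 97.6 CPM in control, 88.6, 99.0 and 87.4 with doxycycline, 74.0, 78.4 and 79.3 with dTAG-13, and 87.2, 93.6 and 87.6 with both. Cyclin B2 (Ccnb2) measured 63.1, 64.2 and 59.5 CPM in control, 66.4, 71.3 and 64.6 with doxycycline, 64.2, 66.7 and 63.9 with dTAG-13, and 70.1, 68.8 and 75.7 with both. Ccna2 was low in both dTAG-13 groups, Ccnb1 was low with dTAG-13 alone and overlapped control with both compounds, and Ccnb2 with both compounds was above control and dTAG-13 alone but overlapped doxycycline. Log2 fold changes after dTAG-13 alone were -0.29 ± 0.03 for Ccna2 (adjusted p = 6.26e-13), -0.25 ± 0.05 for Ccnb1 (adjusted p = 0.000113) and 0.06 ± 0.04 for Ccnb2 (adjusted p = 0.213). In doxycycline-treated cells Ccna2 changed by -0.24 ± 0.03 (adjusted p = 1.02e-10), and the values were -0.04 ± 0.05 for Ccnb1 (adjusted p = 0.532) and 0.09 ± 0.04 for Ccnb2 (adjusted p = 0.0621). The difference for Ccnb1 was called (interaction 0.21 ± 0.07, adjusted p = 0.026), but was lost without doxycycline replicate 1 (adjusted p = 0.0763), dTAG-13 replicate 1 (adjusted p = 0.0698) or combined replicate 2 (adjusted p = 0.0624). It was also lost with library size scaling only (0.14, adjusted p = 0.12). Corrected for length and GC content, all 3 cyclins were called lower after dTAG-13 alone (Ccna2 by -0.33, Ccnb1 by -0.44 and Ccnb2 by -0.11) and in doxycycline-treated cells (-0.24, -0.20 and -0.14). Ccna2 shares exon sequence with Exosc9.

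The Cdc25 phosphatases, which switch Cdk1 on, rose with doxycycline alone. Cdc25b measured 131.9, 137.6 and 139.7 CPM in control, 160.2, 166.3 and 157.6 with doxycycline, 119.3, 121.3 and 121.0 with dTAG-13, and 132.3, 141.7 and 139.5 with both. Cdc25c measured 31.6, 33.2 and 34.1 CPM in control, 37.1, 36.2 and 35.8 with doxycycline, 29.6, 28.4 and 30.0 with dTAG-13, and 34.4, 35.2 and 34.3 with both. In both genes the doxycycline libraries were highest and the dTAG-13 libraries lowest, without overlap. Doxycycline alone raised Cdc25b by 0.24 ± 0.03 (adjusted p = 1.04e-08) and Cdc25c by 0.14 ± 0.05 (adjusted p = 0.016), the latter not without control replicate 1 (0.11, adjusted p = 0.126). dTAG-13 alone changed them by -0.18 ± 0.03 (adjusted p = 1.82e-06) and -0.17 ± 0.05 (adjusted p = 0.00241), and with library size scaling only Cdc25c was no longer called (-0.08, adjusted p = 0.158). Cdc25b overlaps exons of Spef1.

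All 5 mitotic kinases fell after dTAG-13 alone, where 32.1% of all tested genes did. Plk1 (Entrez 18817), the Polo-like kinase, measured 112.0, 113.7 and 118.0 CPM in control, 105.9, 106.9 and 103.6 with doxycycline, 64.7, 66.9 and 62.9 with dTAG-13, and 69.4, 67.9 and 70.9 with both. Its 4 groups were all separate, with dTAG-13 alone lowest. Plk1 changed by -0.82 ± 0.03 (adjusted p = 1.51e-23) after dTAG-13, by -0.60 ± 0.03 (adjusted p = 5.87e-19) after dTAG-13 in doxycycline-treated cells and by -0.12 ± 0.03 (adjusted p = 0.00321) with doxycycline alone. The interaction was 0.22 ± 0.05 (adjusted p = 0.000776). Plk1 overlaps exons of Gm44985.

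Falls in the Aurora kinases were smaller. Aurora A (Aurka), which acts at the spindle poles, measured 184.0, 188.3 and 189.1 CPM in control, 181.1, 183.8 and 181.7 with doxycycline, 166.6, 162.4 and 176.8 with dTAG-13, and 173.5, 182.4 and 182.4 with both. Aurora B (Aurkb), the kinase of the chromosomal passenger complex, measured 106.0, 105.2 and 107.1 CPM in control, 106.2, 113.4 and 115.9 with doxycycline, 91.1, 94.6 and 95.2 with dTAG-13, and 101.8, 109.3 and 104.6 with both. In both genes the dTAG-13 libraries lay below all control libraries, while the combined libraries overlapped those of doxycycline. After dTAG-13 alone, Aurka changed by -0.15 ± 0.03 (adjusted p = 1.19e-05) and Aurkb by -0.18 ± 0.03 (adjusted p = 1.03e-05), and with library size scaling only the call for Aurka was lost (-0.06, adjusted p = 0.0591). In doxycycline-treated cells the value was -0.02 ± 0.03 (adjusted p = 0.536) for Aurka and -0.09 ± 0.03 (adjusted p = 0.0223) for Aurkb, the latter not called without doxycycline replicate 3 (adjusted p = 0.154) or combined replicate 1 (adjusted p = 0.127) or 3 (adjusted p = 0.0582), with library size scaling only (adjusted p = 0.0816) or by DESeq2 (adjusted p = 0.0803). The checkpoint kinase Ttk and the centrosome kinase Nek2 fell by 0.39 and 0.49 on the log2 scale after dTAG-13 alone and by 0.26 and 0.36 in doxycycline-treated cells.

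**Figure D3:**
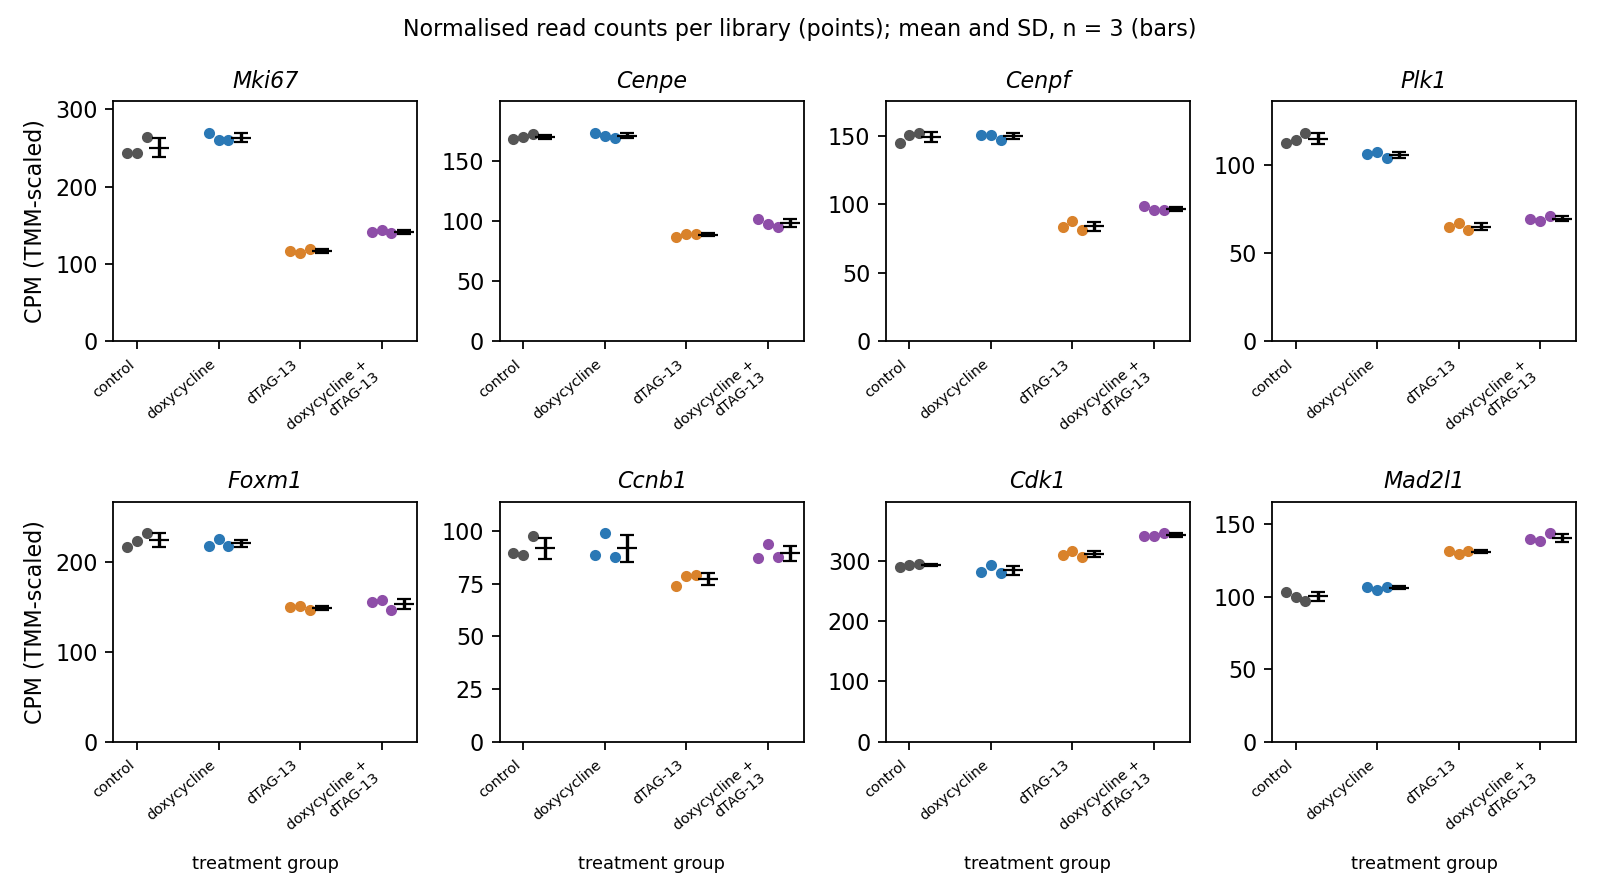
Normalised read counts (CPM, vertical axes starting at 0) of 8 mitotic genes in each library of the 4 treatment groups (horizontal axes), with points for libraries and bars for the mean and SD of 3. Mki67, Cenpe, Cenpf, Plk1 and Foxm1 are low in both dTAG-13 groups, Ccnb1 in 1 of them, and Cdk1 and Mad2l1 are highest where both compounds were given.

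Spindle checkpoint genes, whose products hold back anaphase until all kinetochores are attached, split in direction. Mad2l1 (Entrez 56150), which sequesters Cdc20, measured 103.6, 100.2 and 97.4 CPM in control, 106.5, 105.0 and 107.1 with doxycycline, 131.6, 129.8 and 131.7 with dTAG-13, and 139.7, 138.3 and 144.1 with both. Bub1, the kinase that recruits checkpoint proteins to kinetochores, measured 185.8, 198.7 and 202.7 CPM in control, 219.6, 215.6 and 216.3 with doxycycline, 220.3, 228.1 and 222.3 with dTAG-13, and 228.0, 225.0 and 220.9 with both. Mad2l1 was higher wherever dTAG-13 was given, whereas Bub1 was lowest in control and its other groups lay close together, from 215.6 to 228.1 CPM. Mad2l1 rose by 0.38 ± 0.03 (adjusted p = 7.72e-15) after dTAG-13 alone and by 0.41 ± 0.03 (adjusted p = 1.26e-15) in doxycycline-treated cells, the largest rises of the 50 in both comparisons. Bub1 rose by 0.19 ± 0.03 with dTAG-13 alone (adjusted p = 6.55e-08) and by 0.15 ± 0.03 with doxycycline alone (adjusted p = 2.46e-05), but not with dTAG-13 on top of doxycycline (0.05 ± 0.03, adjusted p = 0.12), and its interaction was the only one called below 0 (-0.14 ± 0.04, adjusted p = 0.005). That call was lost with correction for length and GC content (-0.09, adjusted p = 0.0541). With the same correction the dTAG-13 rise of Bub1 was 0.00 (0.004 before rounding, adjusted p = 0.907) and that of Mad2l1 0.46.

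Bub1b (BubR1), a Mad2l1 partner in the checkpoint complex, fell in both dTAG-13 comparisons. It measured 172.8, 172.5 and 170.8 CPM in control and 115.7, 115.8 and 117.2 with dTAG-13, against 175.1, 164.2 and 169.2 with doxycycline and 124.0, 122.6 and 129.8 with both. The dTAG-13 libraries were all below those without it. The falls were -0.57 ± 0.03 (adjusted p = 1.14e-20) and -0.43 ± 0.03 (adjusted p = 7.32e-17). Bub3, which brings Bub1 and Bub1b to kinetochores, was 157.7, 159.0 and 153.6 CPM in control, 147.1, 149.1 and 145.3 with doxycycline, 152.7, 155.6 and 148.2 with dTAG-13, and 155.1, 158.5 and 152.1 with both. The doxycycline libraries lay below those of control and overlapped those of dTAG-13. The doxycycline change was -0.09 ± 0.03 (adjusted p = 0.00754) and missed the threshold with library size scaling only (-0.06, -0.055 before rounding, adjusted p = 0.129) and without control replicate 2 (adjusted p = 0.0863) or doxycycline replicate 1 (adjusted p = 0.0515).

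Of the 3 genes of the APC/C and anaphase, 2 fell and 1 rose after dTAG-13 alone, where 32.1% and 30.0% of all tested genes did. Cdc20 measured 194.5, 191.4 and 180.9 CPM in control, 182.1, 177.5 and 175.5 with doxycycline, 150.5, 154.5 and 159.4 with dTAG-13, and 174.2, 169.5 and 176.0 with both. The dTAG-13 libraries were the lowest, and those with both compounds overlapped those with doxycycline. Its change was -0.29 ± 0.03 (adjusted p = 1.11e-11) after dTAG-13 alone and -0.04 ± 0.03 (adjusted p = 0.203) in doxycycline-treated cells, with an interaction of 0.25 ± 0.04 (adjusted p = 1.21e-05). Ube2c fell by 0.19 on the log2 scale after dTAG-13 alone (adjusted p = 2.16e-08). Securin (Pttg1), the inhibitor of separase, was 13.2, 12 and 14.3 CPM in control and 17.5, 14.5 and 15.3 with dTAG-13, and it was 14.0, 14.7 and 14.9 with doxycycline and 17.1, 17.5 and 16.5 with both. Its rises of 0.27 ± 0.08 (adjusted p = 0.00223) and 0.23 ± 0.07 (adjusted p = 0.00799) missed the threshold without dTAG-13 replicate 1 (adjusted p = 0.0534) and without doxycycline replicate 1 (adjusted p = 0.0564), respectively. Corrected for length and GC content they were 0.06 (0.055 before rounding, adjusted p = 0.552) and -0.01 (adjusted p = 0.886). Cdc20 overlaps exons of Elovl1, and Ube2c those of Tnnc2.

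The chromosomal passenger complex, which corrects faulty attachments and then moves to the midzone, is formed by Aurora B with Incenp, Birc5 (survivin) and Cdca8 (borealin). Incenp measured 239.7, 232.4 and 236.9 CPM in control, 218.9, 224.3 and 219.1 with doxycycline, 185.1, 173.9 and 182.5 with dTAG-13, and 199.5, 208.1 and 206.7 with both. Birc5 measured 126.2, 124.6 and 129.1 CPM in control, 122.8, 116.7 and 116.7 with doxycycline, 124.8, 127.3 and 122.5 with dTAG-13, and 138.8, 139.6 and 135.8 with both. All 4 Incenp groups were separate, with dTAG-13 alone lowest. Birc5 was highest with both compounds and had its lowest mean with doxycycline alone, whose libraries overlapped those of dTAG-13 alone. Interactions were 0.28 ± 0.04 for Incenp (adjusted p = 2.63e-07), 0.24 ± 0.04 for Birc5 (adjusted p = 2.77e-05) and 0.17 ± 0.04 for Cdca8 (adjusted p = 0.00421). The call for Cdca8 was lost with library size scaling only (0.095, adjusted p = 0.111). After dTAG-13 alone Incenp changed by -0.39 ± 0.03 (adjusted p = 1.93e-16) and Birc5 by -0.02 ± 0.03 (adjusted p = 0.562), while in doxycycline-treated cells Incenp fell by 0.11 ± 0.03 (adjusted p = 0.000444) and Birc5 rose by 0.22 ± 0.03 (adjusted p = 1.72e-08). Corrected for length and GC content, the value of Incenp there was 0.00 (-0.004 before rounding, adjusted p = 0.91). With library size scaling only, Birc5 was called higher after dTAG-13 alone (0.07, adjusted p = 0.0302). Cdca8 measured 123.5, 123.0 and 117.6 CPM in control, 110.2, 114.6 and 113.9 with doxycycline, 93.5, 93.9 and 90.7 with dTAG-13, and 97.7, 95.6 and 96.9 with both, 4 separate groups. With doxycycline alone Incenp fell by 0.10, Birc5 fell by 0.09 and Cdca8 fell by 0.105 on the log2 scale, but none was called with library size scaling only, Birc5 was not called without doxycycline replicate 2 (adjusted p = 0.126), and Cdca8 not without control replicate 2 (adjusted p = 0.0626) or doxycycline replicate 1 (adjusted p = 0.0931).

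Of the 7 centromere and kinetochore genes, 2 fell and 4 rose after dTAG-13 alone, where 32.1% and 30.0% of all tested genes did. With correction for transcript length and GC content 5 fell and 1 rose, where 33.3% and 23.4% of all genes with a length did. Cenpe (Entrez 229841), a kinesin that carries chromosomes to the plate, measured 169.0, 170.4 and 172.4 CPM in control, 173.9, 170.9 and 169.6 with doxycycline, 87.4, 89.4 and 89.8 with dTAG-13, and 102.1, 97.6 and 95.6 with both. Cenpf (Entrez 108000), a microtubule-binding corona protein, measured 145.1, 150.6 and 152.3 CPM in control, 150.9, 150.9 and 147.0 with doxycycline, 83.4, 87.7 and 81.0 with dTAG-13, and 98.5, 95.9 and 95.9 with both. In both genes the control and doxycycline libraries overlapped and the dTAG-13 libraries were below them, lowest without doxycycline. Without doxycycline dTAG-13 changed Cenpe by -0.94 ± 0.03 (adjusted p = 5.04e-28) and Cenpf by -0.83 ± 0.03 (adjusted p = 5.83e-25). In doxycycline-treated cells Cenpe changed by -0.80 ± 0.03 (adjusted p = 2.47e-25) and Cenpf by -0.63 ± 0.03 (adjusted p = 6.55e-21). The interaction was 0.20 ± 0.04 for Cenpf (adjusted p = 0.000681) and 0.14 ± 0.04 for Cenpe (adjusted p = 0.0101). The call for Cenpe was lost without combined replicate 1 (adjusted p = 0.0546) and with library size scaling only (0.07, adjusted p = 0.24).

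The centromeric histone and the Ndc80 complex, which binds microtubule ends, had no call below 0 in either dTAG-13 comparison before that correction. Cenpa, the histone H3 variant of centromeres, measured 98.6, 96.2 and 94.1 CPM in control, 98.5, 98.1 and 99.2 with doxycycline, 112.2, 114.3 and 116.9 with dTAG-13, and 130.8, 129.3 and 129.5 with both. Spc24 measured 31.4, 32.8 and 28.1 CPM in control, 29.2, 28.9 and 31.4 with doxycycline, 33.6, 33.7 and 34.1 with dTAG-13, and 40.3, 39.3 and 37.6 with both. Spc25 measured 36.9, 39.7 and 38.6 CPM in control, 37.5, 39.7 and 39.3 with doxycycline, 38.2, 38.5 and 36.4 with dTAG-13, and 47.1, 43.6 and 46.1 with both. All 3 genes were highest with both compounds, without overlap with any other group. Cenpa rose by 0.25 ± 0.03 (adjusted p = 1.31e-09) after dTAG-13 alone and by 0.40 ± 0.03 (adjusted p = 3.46e-15) in doxycycline-treated cells. Spc24 and Spc25 rose in doxycycline-treated cells, by 0.39 ± 0.05 (0.385 before rounding, adjusted p = 2.84e-08) and 0.23 ± 0.05 (adjusted p = 2.87e-05). Corrected for transcript length and GC content, the rises of Cenpa were 0.08 and 0.18, that of Spc24 in doxycycline-treated cells was 0.35, and Spc25 was called lower there (-0.14, adjusted p = 0.00749). Interactions were called for Spc24 and Spc25, at 0.25 ± 0.07 (adjusted p = 0.0107) and 0.26 ± 0.06 (adjusted p = 0.00317). That of Spc24 was not called without control replicate 2 (adjusted p = 0.0697) or with library size scaling only (0.18, adjusted p = 0.0696). The interaction of Cenpa (0.15) was lost with library size scaling only (0.08, adjusted p = 0.186) and with correction for length and GC content (0.10, adjusted p = 0.0741).

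Nuf2, the partner of Ndc80 in that complex, rose with either compound: 60.2, 60.0 and 59.3 CPM in control, 66.1, 66.6 and 68.9 with doxycycline, 64.5, 68.4 and 65.6 with dTAG-13, and 77.6, 79.4 and 79.1 with both. Only the single-compound groups overlapped. Log2 rises were 0.15 ± 0.04 for dTAG-13 alone (adjusted p = 0.000587) and 0.17 ± 0.04 for doxycycline alone (adjusted p = 0.000307). After dTAG-13 alone the values of Ndc80 itself (0.10, adjusted p = 0.0468) and Spc24 (0.13, adjusted p = 0.0258) met the threshold narrowly. Ndc80 lost its call in 9 of 12 fits without 1 library, all but those without dTAG-13 replicate 1 or 3 or combined replicate 2, with values from 0.04 (without dTAG-13 replicate 2) to 0.11 (without control replicate 1). Spc24 lost it in 4, without control replicate 3 (0.07, adjusted p = 0.294) or any 1 of the dTAG-13 replicates (adjusted p from 0.0555 to 0.0828). Corrected for length and GC content, Nuf2, Ndc80 and Spc25 were called lower after dTAG-13 alone, at -0.09 (adjusted p = 0.0369), -0.17 (adjusted p = 0.000868) and -0.36 (adjusted p = 3.8e-09), and Spc24 was not called (0.10, adjusted p = 0.109). In doxycycline-treated cells the corrected value of Nuf2 was 0.05 (adjusted p = 0.28).

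Spindle motors and microtubule factors fell in 7 of 8 cases after dTAG-13 alone, where 32.1% of all tested genes fell. They rose in 8 of 8 with doxycycline among dTAG-13 cells, where 10.7% rose. Aspm, a spindle pole protein, measured 96.7, 95.1 and 92.1 CPM in control, 100.7, 101.8 and 98.5 with doxycycline, 55.7, 54.2 and 53.0 with dTAG-13, and 64.0, 68.1 and 61.8 with both. The 4 groups were separate. Aspm changed by -0.80 ± 0.04 (adjusted p = 6.85e-22) after dTAG-13 alone and -0.64 ± 0.04 (adjusted p = 1.07e-18) in doxycycline-treated cells, and by 0.25 ± 0.04 (adjusted p = 3.82e-06) with doxycycline among dTAG-13 cells. Tpx2, the activator of Aurora A on spindles, and the kinesins Kif2c and Kif4 fell by 0.47, 0.47 and 0.46 (0.455 before rounding) on the log2 scale after dTAG-13 alone. Kif11, the kinesin that drives the poles apart, fell by 0.09 and Kif20b by 0.16, and neither was called with library size scaling only.

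Nusap1 and Hmmr, which bundle and anchor spindle microtubules, were raised by doxycycline. Nusap1 measured 70.5, 73.6 and 71.9 CPM in control, 83.0, 88.3 and 84.6 with doxycycline, 72.1, 72.0 and 72.0 with dTAG-13, and 83.8, 80.8 and 83.2 with both. Hmmr measured 106.5, 108.4 and 111.0 CPM in control, 117.4, 124.5 and 123.2 with doxycycline, 102.1, 102.1 and 102.7 with dTAG-13, and 119.0, 117.5 and 117.6 with both. The libraries given doxycycline were above those not given it, with or without dTAG-13. Doxycycline alone raised Nusap1 by 0.25 ± 0.03 (0.245 before rounding, adjusted p = 2.63e-07) and Hmmr by 0.16 ± 0.03 (adjusted p = 2.21e-05), and among dTAG-13 cells by 0.20 ± 0.03 (adjusted p = 3.17e-05) and 0.21 ± 0.03 (adjusted p = 1.2e-06). After dTAG-13 alone the value of Nusap1 was 0.00 (0.001 before rounding, adjusted p = 0.986), and Hmmr changed by -0.09 ± 0.03 (adjusted p = 0.0119), which turned to 0.01 (0.006 before rounding) with library size scaling only. Nusap1 overlaps exons of Oip5.

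Central spindle and cytokinesis genes fell in 5 of 6 cases after dTAG-13 alone, where 32.1% of all tested genes fell. The midzone kinesin Kif23 fell by 0.45 on the log2 scale (adjusted p = 2.25e-17), Prc1, which crosslinks midzone microtubules, by 0.35 (adjusted p = 7.86e-15), and Kif20a by 0.31 (adjusted p = 4.09e-13). Anillin (Anln), a scaffold of the contractile ring, fell by 0.18 (adjusted p = 1.72e-08). Racgap1 changed by -0.10, not called with library size scaling only, and Ect2, a cytokinesis factor, by -0.01 (adjusted p = 0.855). In doxycycline-treated cells 4 of the 6 fell (33.4% of all tested genes), Kif23 by the most (0.39).

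Chromosome structure genes held the highest level of the 50 and, before correction for transcript length and GC content, the largest fall. Mki67 (Entrez 17345), which encodes Ki-67, the coat protein of mitotic chromosomes and a marker of dividing cells, measured 242.8, 243.6 and 263.8 CPM in control, 269.5, 260.5 and 259.5 with doxycycline, 117.0, 114.4 and 119.6 with dTAG-13, and 141.1, 144.3 and 139.7 with both. Top2a measured 1047.7, 1069.5 and 1076.7 CPM in control, 1182.6, 1178.7 and 1173.0 with doxycycline, 831.9, 850.8 and 834.4 with dTAG-13, and 979.2, 980.3 and 972.8 with both. Each dTAG-13 group lay below its counterpart without dTAG-13, and in both genes the lowest libraries were those with dTAG-13 alone. Mki67 changed by -1.09 ± 0.03 (adjusted p = 1.24e-29) after dTAG-13 alone and -0.89 ± 0.03 (adjusted p = 1.89e-26) in doxycycline-treated cells, with an interaction of 0.20 ± 0.04 (adjusted p = 0.000291). With the correction its values were -0.80 and -0.515, against -0.815 and -0.60 for Plk1 and -0.81 and -0.57 for Cenpe. After dTAG-13 alone these corrected values lay so close together that their order is not resolved. In doxycycline-treated cells the corrected fall of Mki67 was smaller than those of Plk1 and Cenpe. Top2a changed by -0.34 ± 0.02 (adjusted p = 1.23e-19) and -0.27 ± 0.02 (adjusted p = 2.41e-16), and doxycycline raised it by 0.15 ± 0.02 (adjusted p = 2.8e-08) alone and 0.22 ± 0.02 (adjusted p = 1.5e-12) among dTAG-13 cells.

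Condensin I compacts chromosomes. Its subunits Ncapd2 and Ncaph fell by 0.62 (adjusted p = 3.04e-23) and 0.41 (adjusted p = 4.15e-14) after dTAG-13 alone, and by 0.50 and 0.44 in doxycycline-treated cells. For Ncapg and Smc4 the values after dTAG-13 alone were 0.04 (adjusted p = 0.319) and 0.02 (adjusted p = 0.549). Smc2 changed by -0.07 (adjusted p = 0.0162), which was lost without dTAG-13 replicate 1 (-0.06, adjusted p = 0.0815) and with library size scaling only (0.02, adjusted p = 0.524). Corrected for length and GC content, all 5 were called lower after dTAG-13 alone, with Ncapg at -0.22 (adjusted p = 2.01e-06), Smc4 at -0.11 (adjusted p = 4.44e-06) and Smc2 at -0.13 (adjusted p = 7.64e-06). Of all genes with a length, 33.3% were then called lower after dTAG-13 alone. The corrected falls of Ncapd2 were smaller, at -0.43 after dTAG-13 alone and -0.27 in doxycycline-treated cells. Those of Ncaph were -0.475 and -0.48.

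Across the table, dTAG-13 effects varied with transcript length, so the mitotic genes were set beside genes of like length. Their exon length had a median of 3.41 kb, against 3.31 kb for the 11745 tested genes with a length, and their GC content a median of 46.3%, against 49.5%. After dTAG-13 alone, the 17 members of 1.53 to 2.96 kb had a median log2 fold change of -0.17, against 0.08 for all tested genes in that range. The 16 members of 2.96 to 4.25 kb had -0.24, against -0.02, and the 17 of 4.25 to 11.13 kb had -0.34, against -0.17. In doxycycline-treated cells the corresponding medians were -0.04 against 0.09, -0.15 against -0.05 and -0.27 against -0.25. Spearman's rank correlation between length and the dTAG-13 effect was -0.3 over the 50 genes and -0.43 over all tested genes, and -0.4 and -0.57 in doxycycline-treated cells. These describe genes of the same libraries, which are not independent replicates. With each library corrected for length and GC content, 42 mitotic genes fell and 3 rose after dTAG-13 alone. Their median was -0.26, against -0.02 for all genes with a length, of which 33.3% were called lower and 23.4% higher. In doxycycline-treated cells 36 fell and 6 rose (median -0.14, against -0.02), where 29.6% were lower and 24.7% higher. With that correction 35 were higher and 0 lower with doxycycline among dTAG-13 cells (9.96% and 9.38% of all), and the interaction was called above 0 for 32 and below for 0 (16.6% and 7.42%). Among the large falls, corrected values after dTAG-13 alone and in doxycycline-treated cells were -0.39 and -0.29 for Foxm1, -0.61 and -0.32 for Cenpf and -0.58 and -0.32 for Aspm.

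**Figure D4:**
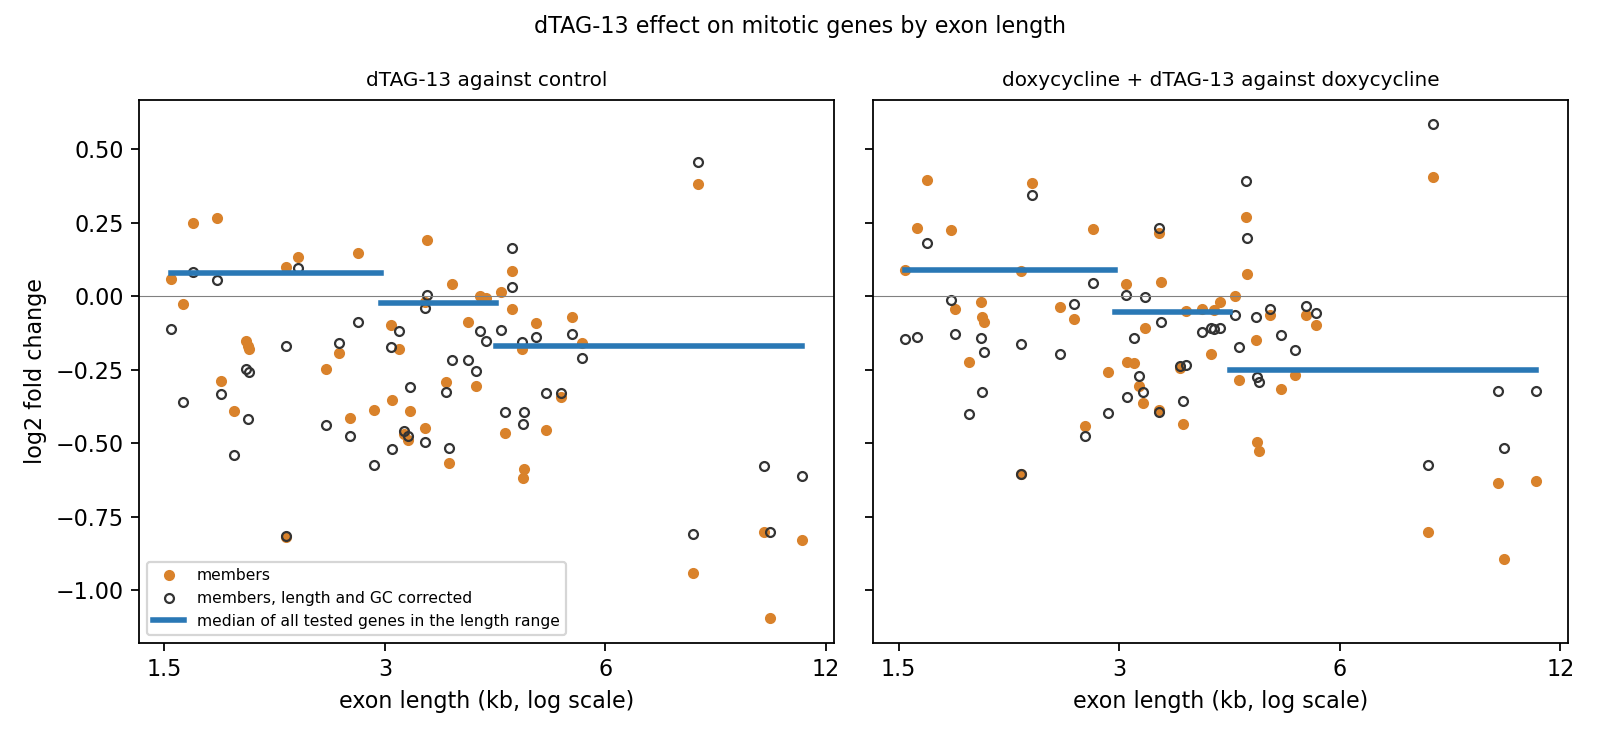
Log2 fold change after dTAG-13 (vertical axis) against exon length in kb (horizontal axis, log scale) for the 50 mitotic genes, before (filled) and after (open) correction for length and GC content, without doxycycline (left) and in doxycycline-treated cells (right). Blue lines give the median of all tested genes in 3 length ranges, for dTAG-13 alone 0.08, -0.02 and -0.17 from short to long, and most members lie below them on the left.

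A further 96 genes of G2, mitosis and cytokinesis were listed from textbook function, and all 96 were tested. After dTAG-13 alone 46 fell and 25 rose (median -0.09), where 32.1% of all tested genes were called lower and 30.0% higher. In doxycycline-treated cells 41 fell and 33 rose (median -0.04), where 33.4% were lower and 30.7% higher. Spindle genes of this list fell in 13 of 15 cases and cohesin and condensin II genes in 8 of 10, whereas in the kinetochore group 9 of 26 rose and 6 fell. The largest falls after dTAG-13 alone were in the cohesin subunit Smc1a (-0.80 ± 0.03, adjusted p = 5.29e-27), citron kinase Cit (-0.79 ± 0.05, adjusted p = 8.53e-18) and separase, Espl1 (-0.75 ± 0.03, adjusted p = 7.24e-22). The largest rises were in the small APC/C subunits Anapc13 (0.44 ± 0.06, adjusted p = 6.09e-07), Anapc10 (0.41 ± 0.07, adjusted p = 8.73e-07) and Anapc11 (0.39 ± 0.03, adjusted p = 3.25e-15). In doxycycline-treated cells the largest falls were Smc1a (-0.70), Cit (-0.65) and the spindle pole organiser Numa1 (-0.62), and the largest rises the kinetochore proteins Cenpw (0.67) and Ska1 (0.48) and the APC/C subunit Cdc26 (0.51). All values of this list are given without correction for transcript length and GC content. Since dTAG-13 effects varied with length (Spearman -0.43 and -0.57 over all tested genes with a length), they can hold that trend. With doxycycline among dTAG-13 cells 24 of the 96 rose and 4 fell (median 0.05; 10.7% and 9.64% of all tested genes), the largest rises being Ska1 (0.27), Cdca3 (0.25) and Depdc1a (0.25). The largest fall there was B-Myb, Mybl2 (-0.19 ± 0.03, adjusted p = 4.66e-05), which doxycycline alone also lowered by 0.28 on the log2 scale (adjusted p = 5.79e-09). With doxycycline alone 13 rose and 18 fell (median 0.00, 0.004 before rounding; 14.8% and 18.7% of all), and the interaction was called above 0 for 23 and below 0 for 4 (13.2% and 9.64%).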

How the data were processed

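The deposited data are raw read counts per Entrez gene ID for 12 poly(A) RNA libraries, not normalized by the authors. Reads were aligned with Subread, per the file headers, and bcl2fastq 2.17, featureCounts and mm10 are named in the submitters' processing notes. Not given in the sources used here are the aligner's version, the gene annotation, the strand setting and the treatment of reads with several matches. All 12 columns matched a library by name, and 0 columns were left unused. Symbols were assigned by Entrez ID from RefSeq GRCm38.p6 (25275 IDs) and GENCODE M21 (18 IDs), and 1886 IDs had none. RefSeq GRCm38.p6 and mm10 are the same assembly.

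Counts were tested in R 4.3.3 with edgeR 4.0.16: filterByExpr by group, TMM (trimmed mean of M values) scaling, 1 mean per group over all 12 libraries, and the robust quasi-likelihood F test, two-sided. P-values were adjusted by Benjamini-Hochberg over all 12910 tested genes, with calls made where the adjusted p was under 0.05. The SE of a log2 fold change is its size divided by the root of F. CPM uses the TMM-scaled library size, and exon length is the union of exons of the GENCODE M21 basic transcripts. The code was tested on simulated data. Total counts of 22165538 to 32809573 per library set the precision, and no pair of libraries was identical.

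The 50 members and the lists (96 other G2/M genes, 44 G1/S and replication genes, 7 CDK inhibitors, and epithelial, leukocyte, fibroblast and endothelial markers) were chosen with earlier results of these data known. Values by library are given for 17 members fixed in advance of this report and for the 5 called members with the largest change in each direction of each comparison, plus Bub1b. For the other gene lists, up to 3 called genes per direction are named. Alternatives were DESeq2 1.42.0, its size factors (RLE), scaling by library size only, no filter, a filter of 1 CPM in 3 libraries, a block for the replicate number, a fit to only the groups compared, leaving out each library, and a per-library correction of log2 CPM for length and GC content (splines with 5 degrees of freedom, genes without a length left out). Tables were made in Python 3.11.15 with pandas 2.3.3 and figures with matplotlib 3.10.9.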

Additional observations from a re-analysis of the deposited data

Results flagged for a closer look

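For 26 of the 50 mitotic genes the effect of dTAG-13 differed between doxycycline-treated cells and cells without doxycycline, by the edgeR interaction test adjusted over all tested genes. That test called 22.9% of all tested genes, 13.2% above 0 and 9.64% below. Values are the log2 effect with doxycycline minus that without. The entry and kinase genes were Ccnb1 (0.212), Cdk1 (0.182), Plk1 (0.216) and Aurka (0.13). Checkpoint and APC/C genes were Bub1b (0.133), Bub3 (0.12), Cdc20 (0.246) and Ube2c (0.115). All 3 partners of Aurora B in the passenger complex were among them, Incenp (0.281), Birc5 (0.237) and Cdca8 (0.166). Kinetochore genes were Cenpa (0.148), Cenpe (0.138), Cenpf (0.199), Spc24 (0.253) and Spc25 (0.256). Spindle and cytokinesis genes were Tpx2 (0.182), Kif2c (0.163), Aspm (0.165), Kif20a (0.111), Prc1 (0.129) and Racgap1 (0.14). Chromosome structure genes were Mki67 (0.202), Ncapd2 (0.122) and Top2a (0.074). Bub1 alone had a value below 0 (-0.144). Of the 25 calls above 0, 16 were lost with library size scaling only and 11 in at least 1 fit without 1 library. The calls for Bub1 and Cenpa were lost with correction for length and GC content. With 3 libraries of 1 culture per group, these differences were not tested between cultures.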

How the results depend on the processing

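Each count and median of the 5 comparisons was recomputed under the alternatives. The number of mitotic genes called lower with dTAG-13 alone ran from 27 to 42 over all of them. With library size only, counts were 1 lower for doxycycline alone, 14 higher for dTAG-13 alone, and 9 above and 4 below 0 for the interaction, and medians were 0.05 (doxycycline), -0.088 (dTAG-13), 0.087 (doxycycline among dTAG-13 cells) and 0.047 (interaction). With length and GC correction, counts were 9 higher (doxycycline), 3 higher (dTAG-13) and 0 below 0 (interaction), and medians were -0.256 (dTAG-13) and -0.142 (dTAG-13 on doxycycline). Called lower with doxycycline were then Cdk1, Plk1, Bub3, Cdc20, Birc5, Incenp, Cdca8, Cenpe, Cenpf, Tpx2, Racgap1 and Smc2, more genes than were called higher. Calls among the 11745 tested genes with a length were then 1545 higher and 3007 lower for doxycycline and 1950 above and 872 below 0 for the interaction. With only the groups compared, 5 genes were lower with doxycycline; this setting was not run for the interaction, which needs all 4 groups. Without 1 library, members higher and lower ran from 9 to 17 and 3 to 8 (doxycycline), 6 to 8 and 33 to 34 (dTAG-13), 7 to 10 and 25 to 28 (dTAG-13 on doxycycline), 27 to 36 and 0 to 0 (doxycycline among dTAG-13 cells) and 19 to 26 and 1 to 1 (interaction), and medians from -0.007 to 0.026, -0.208 to -0.177, -0.101 to -0.074, 0.122 to 0.138 and 0.095 to 0.126. Changes of sign were listed for 29 named genes, not for all 50. With library size only, Birc5 (0.071) and Hmmr (0.006) turned sign for dTAG-13 alone. With length and GC correction Cenpe (-0.066), Cenpf (-0.076) and Mad2l1 (-0.011) did so for doxycycline. For dTAG-13 alone Ccnb2 (-0.111), Nuf2 (-0.086) and Nusap1 (-0.118) did. For dTAG-13 on doxycycline Bub1 (-0.087), Ccnb2 (-0.144), Pttg1 (-0.014) and Spc25 (-0.138) did. A further 45 of 2871 values of the 29 genes changed sign while called under neither setting. Members outside the 29 also turned sign. Among them were Kif11 (0.001) and Smc2 (0.02) for dTAG-13 alone with library size only. Length and GC correction turned Ndc80 (-0.168), Ncapg (-0.216) and Smc4 (-0.113) for dTAG-13 alone, and Smc2 (-0.06) for doxycycline, among others. The causes were not tested. Replicate numbers name technical replicates and do not pair the libraries (correlations of same-numbered deviations from -0.017 to 0.081). With the replicate block, 15 rose and 7 fell (doxycycline), 7 and 34 (dTAG-13), 9 and 28 (dTAG-13 on doxycycline), 31 and 0 (doxycycline among dTAG-13 cells) and 24 and 1 (interaction), and all-gene calls were 4172, 7938, 8205, 2490 and 2810.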

Other observations

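Inhibitors of cyclin-dependent kinases, which hold cells out of S phase or mitosis, were listed as 7 genes, of which 4 rose and 1 fell after dTAG-13 alone (edgeR; median log2 fold change 0.21), where 30.0% of all tested genes were called higher and 32.1% lower. In doxycycline-treated cells 2 rose and 2 fell, where 30.7% and 33.4% did. Cdkn1a, which encodes p21, a target of p53 and an inhibitor of Cdk2 and Cdk1, measured 73.5, 74.8 and 75.4 CPM in control, 70.9, 73.5 and 73.9 with doxycycline, 88.0, 83.2 and 87.1 with dTAG-13, and 57.0, 56.5 and 58.0 with both. It was highest with dTAG-13 alone and lowest with both compounds, without overlap. The dTAG-13 change was 0.21 ± 0.03 (SE; adjusted p = 1.5e-06) without doxycycline and -0.35 ± 0.04 (adjusted p = 5.25e-11) with it, and the interaction was -0.56 ± 0.05 (-0.555 before rounding, adjusted p = 3.15e-11). With both compounds against dTAG-13 alone, Cdkn1a changed by -0.59, while 33 of 50 mitotic genes were called higher and 0 lower. Of all tested genes 10.7% were higher and 9.64% lower there. With both against doxycycline alone, Cdkn1a fell and 28 of the 50 also fell, while 9 rose. A link between Cdkn1a and the mitotic genes was not tested. Cdkn1b (p27) rose with dTAG-13 alone by 0.30 ± 0.04 (0.305 before rounding, adjusted p = 2.49e-08), and Cdkn2d (p19) by 0.32 ± 0.08 (adjusted p = 0.000414). Cdkn2c (p18) fell by 0.40 (adjusted p = 3.83e-05) and by 0.43 in doxycycline-treated cells (adjusted p = 1.18e-05). With doxycycline alone 2 rose and 2 fell (14.8% and 18.7% of all tested genes), Cdkn2d by 0.48 and Cdkn1b by 0.17 upward and Cdkn2a and Cdkn2b downward (-0.31 and -0.23).

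Genes of the G1/S transition and DNA replication, 44 in all, were mixed in direction after dTAG-13 alone, with 20 lower and 15 higher (median -0.04; 32.1% and 30.0% of all tested genes), and in doxycycline-treated cells, with 22 lower and 19 higher (median -0.03; 33.4% and 30.7%). The largest falls after dTAG-13 alone were in the polymerase Pole (-0.63 ± 0.03, adjusted p = 3.27e-19), Uhrf1 (-0.53) and the chromatin assembly factor Chaf1a (-0.46, -0.455 before rounding). The largest rises were in cyclin E2, Ccne2 (0.58 ± 0.05, adjusted p = 1.88e-12), the replication licensing inhibitor Gmnn (0.34, 0.335 before rounding) and Gins4 (0.32). Values of this list and of the CDK inhibitors are given without correction for transcript length and GC content, and can hold the trend of dTAG-13 effects with length. With doxycycline alone 14 of the 44 were lower and 1 higher (median -0.05; 18.7% and 14.8% of all tested genes), led by cyclin D1, Ccnd1 (-0.25 ± 0.02, adjusted p = 5.33e-15), and Tyms (-0.25, -0.246 before rounding). Among dTAG-13 cells doxycycline raised 6 and lowered 3 (median 0.02; 10.7% and 9.64% of all), and the interaction was called above 0 for 11 and below 0 for 1 (13.2% and 9.64%).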
